A study of Hirudo medicinalis with 12 samples.

Results

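Ganglion 10, from the middle of the nerve cord of the medicinal leech Hirudo medicinalis, was compared with the head and tail ends of the cord, ganglia 2 and 19 combined. Membership followed the ganglion named in the labels: 6 libraries of ganglion 10 (numbered 2, 5, 8, 10, 11 and 12) stood against 6 end libraries. The ends comprised 3 libraries of ganglion 2 (1, 4 and 7) and 3 of ganglion 19 (3, 6 and 9), so the comparison used all 12 libraries of the series. All leeches were adults from 1 colony held in tanks at 16 °C, the labels name no treatment or genotype, and total RNA was sequenced. The series describes 3 leeches and asks by its title about spatial regulation along the ganglia chain. The labels do not tie libraries to leeches, so libraries may share an animal, and each p-value reflects no more than how libraries varied, which may be technical.

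The leech cord is a chain of segmental ganglia joined by connectives, with a head brain in front and a tail brain behind. Each ganglion holds pairs of identified neurons, giant glial cells and microglia, and most neuron types, such as the touch, pressure and nociceptive sensory cells and the Retzius serotonin cells, recur from segment to segment. Some neurons occur only in certain segments or differ in number between them, and midbody ganglia have served as the standard preparation for leech physiology. In RNA from whole ganglia, fewer cells of a type and less RNA per cell cannot be told apart.

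The deposited table counted reads on 76845 assembled sequences (contigs) whose identifiers carry no gene name. Counts were summed over the contigs of 1 component, the assembler's unit of related transcripts, which gave 58593 components, 48935 of them with a single contig. Components are therefore described by level and pattern, not by function, and neural or glial markers could not be looked up to check the tissue label. Library totals ran from 6436783 to 19110631 counts. Levels are counts per 1000000 counts (CPM) after scaling by TMM, edgeR's correction for a few dominant transcripts. The total behind them is the library's sum over the components tested in middle against ends, not over all components. Library 1 had a TMM factor of 0.429 and library 3 of 0.51, while the highest was 1.487, in library 10. These 2 end libraries stand apart, with most of their counts in few components. The main results that rest on them are given with and without them.

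More components were found in the middle of the chain than at either end. At a common depth of 6436783 counts per library, the 6 ganglion 10 libraries held 35970 to 41447 components with at least 1 count, with a median of 38500. The ganglion 2 libraries held 18185, 34151 and 32404 components, and the ganglion 19 libraries held 20957, 30834 and 23103. Every ganglion 10 library stood above every end library. The means were 38353 ± 2058 in the middle (SD, n = 6) and 26606 ± 6686 at the ends (SD, n = 6), a difference of 11747 components. The exact two-sided permutation p was 0.00216, the smallest that 924 regroupings of 6 against 6 allow. After Benjamini-Hochberg adjustment over the 24 tests of detection and concentration, p was 0.052, which misses 0.05.

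Both ends lay below the middle. Ganglion 2 averaged 28247 ± 8757 components (SD, n = 3) and ganglion 19 averaged 24965 ± 5195 (SD, n = 3). Against each of them the exact two-sided permutation p was 0.0238, the smallest that 6 against 3 allows, and the adjusted p was 0.0816. Without libraries 1 and 3 the middle still stood 8230 components above the remaining 4 end libraries. Within sequencing lanes, as read from the file names in the labels, ganglion 10 was also above the ends. Lane 2 held 35970 components in its ganglion 10 library and 32404 in its end library. Lane 8 averaged 37400 components in 2 libraries against 28647 in 3, and lane 4 averaged 39783 in 3 against 20644 in 2, among them library 1.

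**Figure D1:**
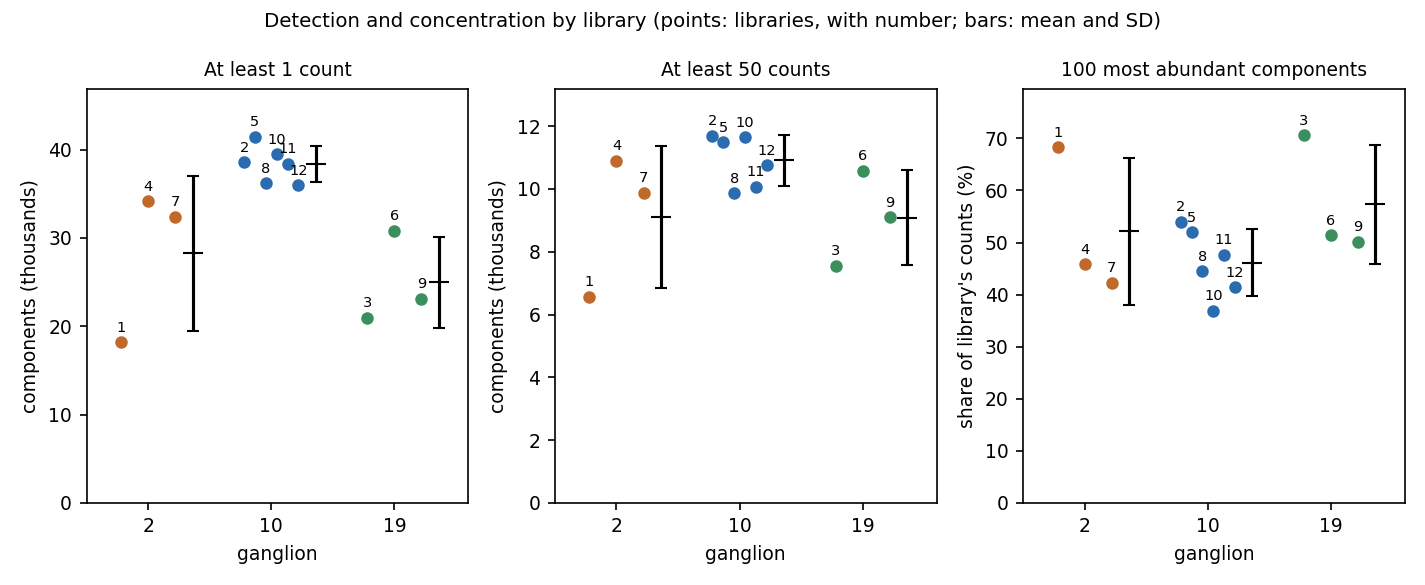
Components with at least 1 and at least 50 counts at the common depth, with the axis in units of 1000, and the share of each library's counts in its 100 most abundant components, by ganglion. Points are libraries with their numbers and bars show mean and SD. At 1 count all 6 ganglion 10 libraries lie above all 6 end libraries, whereas at 50 counts and in the share of the top 100 the groups overlap.

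The gap in detection narrowed as the count required rose. At 5 counts the middle averaged 28044 ± 2478 components and the ends 19886 ± 5141 (SD, n = 6 each; exact permutation p = 0.00433, adjusted p = 0.052). At 10 counts the averages were 22453 ± 2348 and 16804 ± 3983 (exact permutation p = 0.0173, adjusted p = 0.0816). At 50 counts they were 10920 ± 810 and 9098 ± 1725 (exact permutation p = 0.0346, adjusted p = 0.104). From 5 counts upward the groups overlapped, with libraries 4, 6 and 7 nearest to the middle, and none of these differences passed the adjusted threshold.

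Counts were most concentrated in libraries 1 and 3, which also had the fewest components detected. The 100 most abundant components took 68.3% of the counts in library 1 and 70.6% in library 3. In the other 4 end libraries the share ran from 42.3% to 51.4%, within the range of ganglion 10, 36.9% to 54.0%. Beyond libraries 1 and 3 the share did not follow detection throughout. Library 5 held 41447 components with a share of 52.0%, and library 9 held 23103 with 50.1%. The means, 46.1 ± 6.46% in the middle and 54.8 ± 11.8% at the ends (SD, n = 6 each), did not differ beyond the spread (exact two-sided permutation p = 0.169, adjusted p = 0.213). The difference was -8.66 percentage points, and -1.32 without libraries 1 and 3 (exact permutation p = 0.743). The top 1000 components took 65.7 ± 2.98% in the middle and 72.5 ± 7.71% at the ends (exact permutation p = 0.0736, adjusted p = 0.147). The part of concentration in the detection gap was not tested.

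Presence across libraries showed the same imbalance as a pattern of reproducible against patchy detection. At the common depth, 20496 components had a count in all 6 ganglion 10 libraries, 8511 had one in all 6 end libraries, and 8264 had one in all 12. Of the 20496, 148 components had a count in no end library, and 0 components showed the reverse. Allowing 1 library of the absent side, the numbers were 789 and 1. The sets of components found in at least 1 library of a side were closer in size, with 53301 in the middle and 52680 at the ends.

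**Figure D2:**
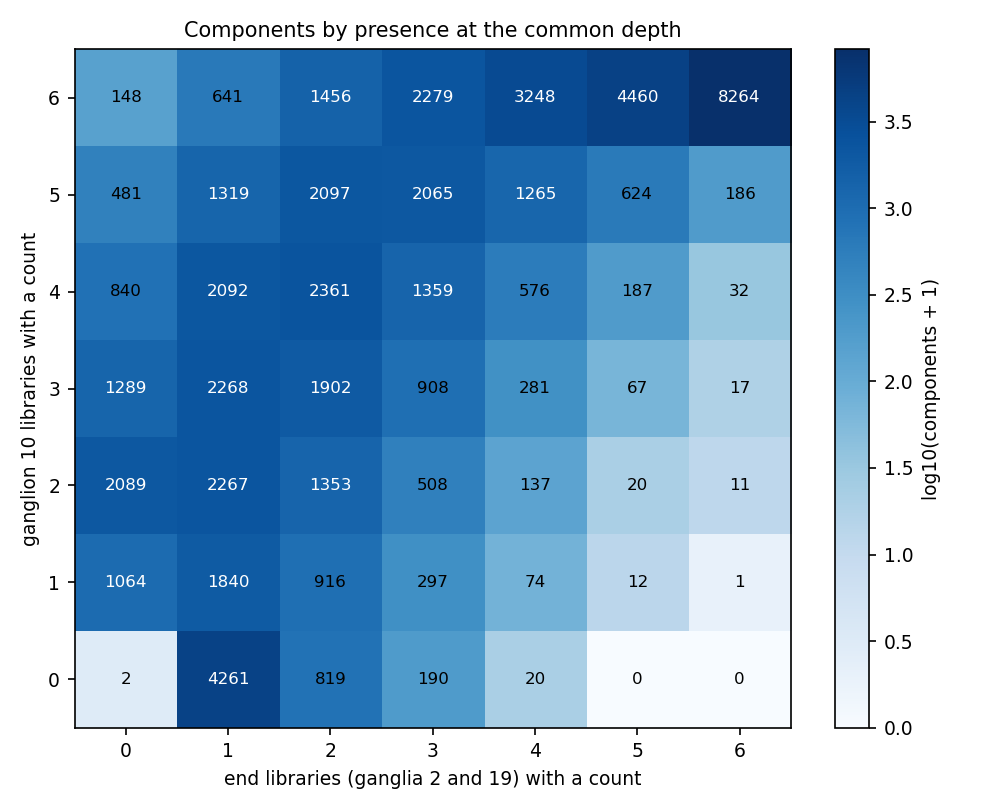
Number of components by how many ganglion 10 libraries (vertical axis) and how many end libraries (horizontal axis) held a count at the common depth, with colour on a log10 scale. The upper left corner, with 148 components in all 6 ganglion 10 libraries and no end library, is filled, and the lower right corner, for all 6 end libraries and no ganglion 10 library, holds 0.

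The end libraries lacked widely shared components to different degrees. Of the 20496 components present in all of ganglion 10, library 1 lacked 41.2%, library 3 lacked 36.0% and library 9 lacked 25.9%. Library 6 lacked 15.0%, library 7 lacked 8.7% and library 4 lacked 8.3%. Conversely, each ganglion 10 library lacked 0.4% to 1.03% of the 8511 components present at all ends. By ganglion, 1382 of the 58593 components were in all of ganglion 10 and none of the 3 ganglion 19 libraries, against 413 for ganglion 2. In the other direction, 51 were in all 3 ganglion 19 libraries and none of ganglion 10, and 6 in all 3 of ganglion 2 and none of ganglion 10. Without libraries 1 and 3, the components in every remaining end library numbered 14566, and 207 components were in all of ganglion 10 and none of these 4 libraries, against 1 the other way.

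The 148 components present throughout ganglion 10 and undetected at the common depth in the ends were scarce. Their mean level in ganglion 10 ran from 0.283 to 6.08 CPM with a median of 0.918, and 137 of them had a single contig. At full depth 36 of the 148 had a count in at least 1 of the 6 end libraries. The low level limits what can be read from their absence, since a component at such a level gives few counts in a library. Only 3 of the 148 passed the filter on low counts used for testing, which asks for about 10 counts in enough libraries.

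No single component passed the test of middle against ends. Of 19608 components tested by edgeR's quasi-likelihood test with Benjamini-Hochberg adjustment, 0 were called (0%), and the smallest adjusted p was 0.256. At an unadjusted p under 0.05 there were 447 higher in ganglion 10 (2.28% of those tested) and 754 lower (3.85%). Together these were 1201 of 19608, and unchanged components alone would give a share of about 0.05 over both directions. Both lists may therefore be largely chance, and what follows on them is description. The biological coefficient of variation was 1.16, so libraries of 1 side differed among themselves by about as much as their level. DESeq2 called 218 components at an adjusted p under 0.05, 73 higher (0.372%) and 145 lower (0.739%), while limma's voom test with library weights called 0. The median log2 difference of all components tested was -0.04, and 0.40 in the voom fit, where 1287 were higher and 265 lower at an unadjusted p under 0.05, and the edgeR fit with the lane as a term had 945 higher and 365 lower. The balance of directions thus depends on the method.

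Leaving out libraries 1 and 3 turned the balance in DESeq2 and not in edgeR on the same components. On the 19608 components of the main comparison DESeq2 then called 168, 125 higher (0.637%) and 43 lower (0.219%). With the filter repeated on the remaining 10 libraries it called 367 of 24059, 312 higher (1.30%) and 55 lower (0.229%). The edgeR test called 0 both times, with smallest adjusted p-values of 0.137 and 0.154. At an unadjusted p under 0.05 it had 559 higher and 628 lower on the 19608 components, and 887 higher and 752 lower on the 24059.

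No component passed a test against each end separately either. In a fit with the 3 ganglia as levels, a component counted only if ganglion 10 differed from ganglion 2 and from ganglion 19 in the same direction, with the larger p of the pair. Of 31524 components tested, edgeR called 0 (0%), and the smallest adjusted p was 0.922. At an unadjusted p under 0.05 there were 639 higher (2.03%) and 246 lower (0.780%). DESeq2 called 23 by the same rule, 8 higher (0.0254%) and 15 lower (0.0476%). Without libraries 1 and 3 it called 85 of the same components, all of them higher (0.270%) and 0 lower (0%). With the filter repeated it called 386 of 37812, with 384 higher (1.02%) and 2 lower (0.00529%).

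Whether the ends agreed was also read from the difference between ganglia 19 and 2 in the same fit. Over all 31524 components the ends differed from each other at an unadjusted p under 0.05 in 6305 (20.0%), and over the 19608 components of the comparison with both ends together in 2772 (14.1%). Among the 447 components higher in ganglion 10 at that threshold the ends differed in 79 (17.7%), and among the 754 lower in 244 (32.4%). The 447 had a median log2 difference of 2.69 from ganglion 2 and 3.94 from ganglion 19. The 754 had medians of -2.51 and -1.75. Medians over all 19608 were 0.18 and 0.15. The ganglion 10 libraries enter both differences, and these components were chosen by the same libraries, so the values are descriptions.

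The direction among components with an unadjusted p under 0.05 varied with abundance, and at low levels with the filter. Of 206 components tested under 1 CPM, averaged over all 12 libraries, 11 were higher in ganglion 10 and 0 lower, and of 4086 at 1 to 3 CPM 202 were higher and 6 lower. From 3 to 10 CPM the numbers were 158 and 137 of 6206. At 10 to 100 CPM 73 were higher and 525 lower of 8045, and at 100 CPM and over 3 were higher and 86 lower of 1065. Median log2 differences of the classes ran in the same order, at 0.87, 0.48, 0.09, -0.24 and -0.38. Separated components, in which every ganglion 10 library lay on 1 side of every end library, did not follow this at 10 to 100 CPM, where 14 were higher and 5 lower. At 100 CPM and over 0 were higher and 6 lower.

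The direction from 1 to 10 CPM depended on the filter. It asks for enough counts in 6 libraries, the size of either side, and kept 0.742% of the components with counts under 1 CPM, 32.9% at 1 to 3 CPM, 71.6% at 3 to 10 CPM and 92.8% at 10 to 100 CPM. Of the 4086 kept at 1 to 3 CPM, 3411 reached the count minimum in more ganglion 10 than end libraries, and 188 in more end libraries. Without the filter the edgeR test had 1190 higher and 2066 lower at 1 to 3 CPM and 430 higher and 1370 lower at 3 to 10 CPM, the opposite balance. Only under 1 CPM were more higher, 5984 against 3652. The unfiltered fit also estimated spread over a different set of components. It had an unadjusted p under 0.05 in 15766 of 58591, against 1201 of 19608 with the filter.

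From 10 CPM upward lower components also outnumbered higher ones without the filter, where 154 were higher and 811 lower at 10 to 100 CPM and 5 higher and 104 lower above. Without libraries 1 and 3, on the same components, the numbers were 166 and 28 at 1 to 3 CPM, 198 and 157 at 3 to 10 CPM, 183 and 387 at 10 to 100 CPM, and 6 and 56 at 100 CPM and over. At 10 to 100 CPM, where all 12 libraries gave 73 higher and 525 lower, the excess of lower components thus shrank without libraries 1 and 3. Lower ones still outnumbered higher ones in both classes from 10 CPM upward. Separated components without these 2 libraries were 62 higher and 57 lower at 10 to 100 CPM, and 1 and 13 at 100 CPM and over.

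**Figure D3:**
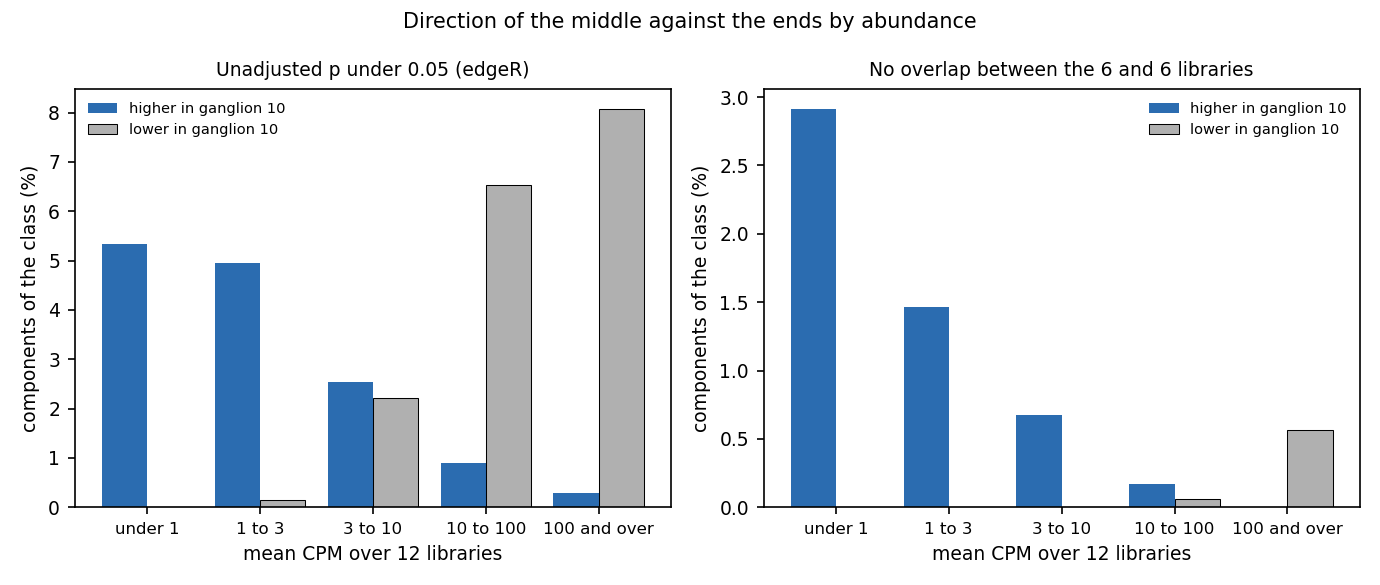
Share of each abundance class (mean CPM over 12 libraries) that was higher (blue) or lower (grey) in ganglion 10, at an unadjusted edgeR p under 0.05 on the left and with no overlap between the 6 ganglion 10 and 6 end libraries on the right. On the left lower components outnumber higher ones from 10 CPM upward, and on the right only at 100 CPM and over. In the classes below 100 CPM most components kept by the filter reached its count minimum in more ganglion 10 than end libraries. At 10 to 100 CPM these were 4179 of 8045, against 136 in more end libraries.

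Missing counts also varied with abundance. In the class of 1 to 3 CPM, 38.4% of values at the ends and 6.21% in ganglion 10 were without a count. In the class of 10 to 100 CPM the shares were 6.27% and 0.721%, and at 100 CPM and over 0.423% and 0.125%. Libraries 1 and 3 were without a count for 71.0% and 64.7% of the components at 1 to 3 CPM, against 10.4% to 46.7% in the other end libraries. Over these other 4 the share was 23.7%, and 2.72% at 10 to 100 CPM. These shares cover only components the filter kept, and their part in the direction was not tested.

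The components lower in the middle were high in some end libraries and not in others. The 754 lower at an unadjusted p under 0.05 had median levels of 109.5 CPM in library 1 and 28.9 CPM in library 3. Their medians were 15.1 CPM in library 6, 18.2 CPM in library 9, 7.76 CPM in library 4 and 4.64 CPM in library 7. In ganglion 10 the medians ran from 3.68 to 5.70 CPM, so library 7 lay inside that range. Library 1 exceeded every ganglion 10 library for 82.5% of the 754 and library 7 for 19.0%, beside 21.7% and 15.9% of all components tested. In 427 of the 754 a single library held over 50% of all end counts, which was so for 9800 of the 19608 components tested.

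The components higher in the middle had lower medians in all 6 end libraries. The 447 higher at that threshold had a median of 0 CPM in libraries 1 and 3, 0.0601 CPM in library 9, 0.298 CPM in library 6, 1.00 CPM in library 4 and 1.07 CPM in library 7. The ganglion 10 medians ran from 3.15 CPM in library 11 to 8.27 CPM in library 2. Over all components tested the medians were 0.780 CPM in library 1 and 2.65 CPM in library 3, and 4.81 to 7.41 CPM in the other 10. Both lists were selected on these values, and their levels are shown to tell which libraries carry each direction.

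**Figure D4:**
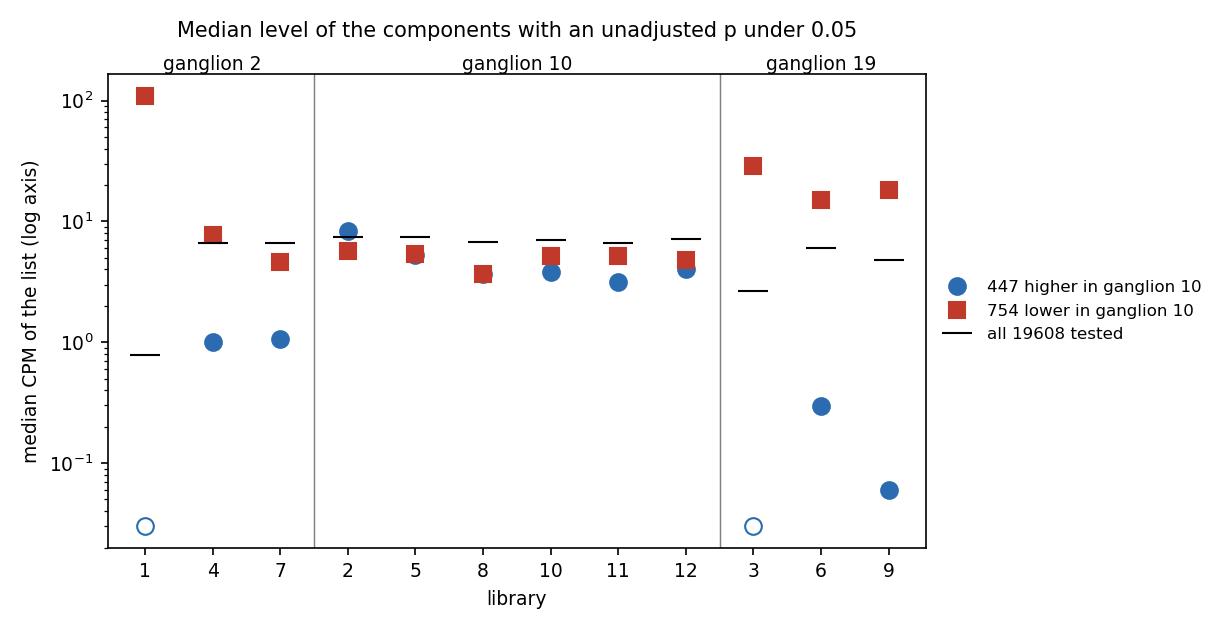
Median CPM (log axis) in each library of the 447 components higher and the 754 lower in ganglion 10 at an unadjusted edgeR p under 0.05, with all 19608 components tested as dashes and open symbols for a median of 0. The 754 peak in library 1 at 109.5 CPM and reach only 7.76 and 4.64 CPM in libraries 4 and 7, whereas the 447 lie below the ganglion 10 levels in all end libraries.

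Separation of all 12 libraries gave a count that does not rest on a fitted spread. In 122 components (0.622% of 19608) every ganglion 10 library lay above every end library, and in 11 (0.0561%) every one lay below. For a component without ties, 1 of the 924 regroupings of 6 against 6 separates the sides in a given direction. The share of higher components was above this and the share of lower ones below it. The rate is no neutral reference here, because scarce components passed the filter mostly through ganglion 10. At 1 to 3 CPM 3411 of the 4086 kept reached its count minimum in more ganglion 10 than end libraries. Components share the same libraries, and neither share was tested. Over all 58591 components with counts, the filter aside, the numbers were 449 and 14. The 122 had low levels, with a median of 2.66 CPM over 12 libraries and a range from 0.732 to 39.0, and 107 had a single contig. Their log2 differences ran from 1.22 to 8.48 with a median of 3.23. The gap between the sides was narrow in most, since the lowest ganglion 10 library exceeded the highest end library by a median of 1.36-fold and by over 2-fold in 24 of the 120 with end counts.

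The ends differed from each other at an unadjusted p under 0.05 in 16 of the 122 (13.1%), close to the share over all components tested, and in 0 of the 11. The 2 of the 122 that had no end counts were at least 50.7-fold and 52.2-fold higher in ganglion 10, against 3 counts over the end group. The 11 lower components were abundant, with a median of 115.4 CPM and a range from 30.8 to 238.5, and their log2 differences ran from -6.03 to -0.71. Without libraries 1 and 3 the counts were 261 higher (1.33%) and 93 lower (0.474%). Fewer libraries make separation by regrouping alone more frequent, and these counts were not tested against it. With CPM by raw totals 185 were higher and 1 lower, so the number of lower components depends on the scaling.

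Of the components with the smallest p in the comparison with both ends together, comp24022_c0 had the largest difference. It had 120.8, 39.97, 2.583, 2.072, 3.383 and 3.391 CPM in ganglion 10 libraries 2, 5, 8, 10, 11 and 12. Ganglion 2 had 0.195, 0 and 0.134 CPM, and ganglion 19 had 0, 0.0995 and 0 CPM, from 4 counts at the ends in all. All ganglion 10 libraries were above all end libraries, and libraries 2 and 5 stood far above the other 4. The log2 difference was 8.48 (SE 1.51, edgeR adjusted p = 0.256, DESeq2 adjusted p = 1.33e-07), and the pooled counts of the sides were 314-fold apart, with a 95% interval of 122 to 1155 for counting error. Without libraries 2 and 5 the log2 difference was 5.17 (edgeR adjusted p = 0.375). The ends did not separate from each other (log2 difference of ganglion 19 from ganglion 2 -1.39, SE 1.91).

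The next higher component, comp111646_c0, was even across most of the middle. It had 6.558, 2.591, 2.583, 2.404, 2.216 and 2.575 CPM in ganglion 10 libraries 2, 5, 8, 10, 11 and 12, with 19 to 46 counts in each. At the ends it had 1 count, in library 7, and 0 in the other 5 libraries. Its log2 difference was 6.88 (SE 1.27, edgeR adjusted p = 0.256, DESeq2 adjusted p = 0.000236). The sides' pooled counts were 176-fold apart with a wide 95% interval of 31.1 to 6970, because the end level rests on that single count.

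The lower component with the smallest p, comp1049_c0, was high in ganglion 19 and in 1 of the 3 ganglion 2 libraries. Ganglion 19 had 53.48, 176.5 and 431.7 CPM, while ganglion 2 had 58.88, 1.878 and 1.268 CPM. Ganglion 10 had 0.783 to 3.992 CPM with a median of 1.18, so libraries 4 and 7 lay within the range of the middle. The log2 difference from both ends together was -6.23 (SE 1.17, edgeR adjusted p = 0.256, DESeq2 adjusted p = 1.03e-06). It was -3.71 (SE 0.96, edgeR adjusted p = 0.213) from ganglion 2 and -7.12 (SE 1.08, edgeR adjusted p = 0.00301) from ganglion 19, and the last of these passed over all 31524 components. Ganglion 19 exceeded ganglion 2 by 3.41 on the log2 scale (SE 1.23, edgeR adjusted p = 0.198).

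The next lower component, comp4820_c0, was below both ends in every library. Ganglion 10 had 0.0628 to 3.679 CPM with a median of 1.92. Ganglion 2 had 264.2, 4.508 and 3.872 CPM and ganglion 19 had 436.9, 9.35 and 44.96 CPM, so libraries 4 and 7 were close to the highest ganglion 10 library. Its log2 difference was -6.03 (SE 1.24, edgeR adjusted p = 0.326, DESeq2 adjusted p = 7.3e-06). Without libraries 1 and 3 it was -3.04 (edgeR adjusted p = 0.527).

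Among the 10 components of smallest p in each direction, the higher ones followed the pattern of low end levels. Of the 10 higher, 9 were separated between the sides, 8 had a single contig, 0 had ends that differed at an unadjusted p under 0.05, and log2 differences ran from 4.99 to 8.48 (edgeR adjusted p from 0.256 to 0.363). Their end counts totalled 0 to 100 each, and libraries 2 and 5 held from 9.74% to 94.8% of their ganglion 10 counts. Of the 10 lower, 1 was separated and 3 had ends that differed at that threshold, with log2 differences from -8.45 to -3.99 (edgeR adjusted p from 0.256 to 0.338). In 9 of these 10 at least 1 of libraries 4 and 7 lay within the range of ganglion 10, and in 5 both did. Libraries 4 and 7 together held 0.101% to 9.56% of their end counts. DESeq2 called all 10 in each direction.

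Ranked by the difference from each end separately, the higher list began again with comp24022_c0, at 7.87 (SE 2.01) above ganglion 2 and 9.27 (SE 2.16) above ganglion 19 on the log2 scale (edgeR adjusted p for both ends = 0.989, DESeq2 0.00361). Second was comp2142_c0, with 12.12, 76.15, 1.331, 0, 1.983 and 23.86 CPM in ganglion 10 libraries 2, 5, 8, 10, 11 and 12. It had no counts in any end library, and ganglion 10 library 10 also had none. Pooled counts put ganglion 10 at least 381-fold higher, against 3 counts over the end group, and the component did not pass (edgeR adjusted p for both ends = 1, DESeq2 0.0146). The lower list was headed by comp26536_c0, with 2 counts in all of ganglion 10. Its ganglion 2 libraries had 241.9, 0 and 0.0668 CPM, and its ganglion 19 libraries had 84.66, 13.43 and 0.180 CPM. The log2 difference was -10.90 (SE 2.06) from ganglion 2 and -9.51 (SE 1.98) from ganglion 19 (edgeR adjusted p for both ends = 0.922, DESeq2 0.00517).

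The agreement of the ends on comp26536_c0 rested on library 1 for ganglion 2, since library 4 had no count and library 7 had 1. The mean of both differences was -10.21 on the log2 scale, and it was -4.92 without library 1 and -3.79 without libraries 1 and 3. Second was comp5290_c0, a component of 11 contigs with 0 to 0.997 CPM in ganglion 10. Ganglion 2 had 187.9, 0.376 and 0.401 CPM, and ganglion 19 had 80.12, 50.53 and 1.082 CPM. Its log2 difference was -7.83 (SE 1.62) from ganglion 2 and -7.24 (SE 1.59) from ganglion 19 (edgeR adjusted p for both ends = 0.922, DESeq2 0.0131). Here too libraries 4 and 7 lay within the range of ganglion 10, and without library 1 the mean of both differences was -3.92.

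**Figure D5:**
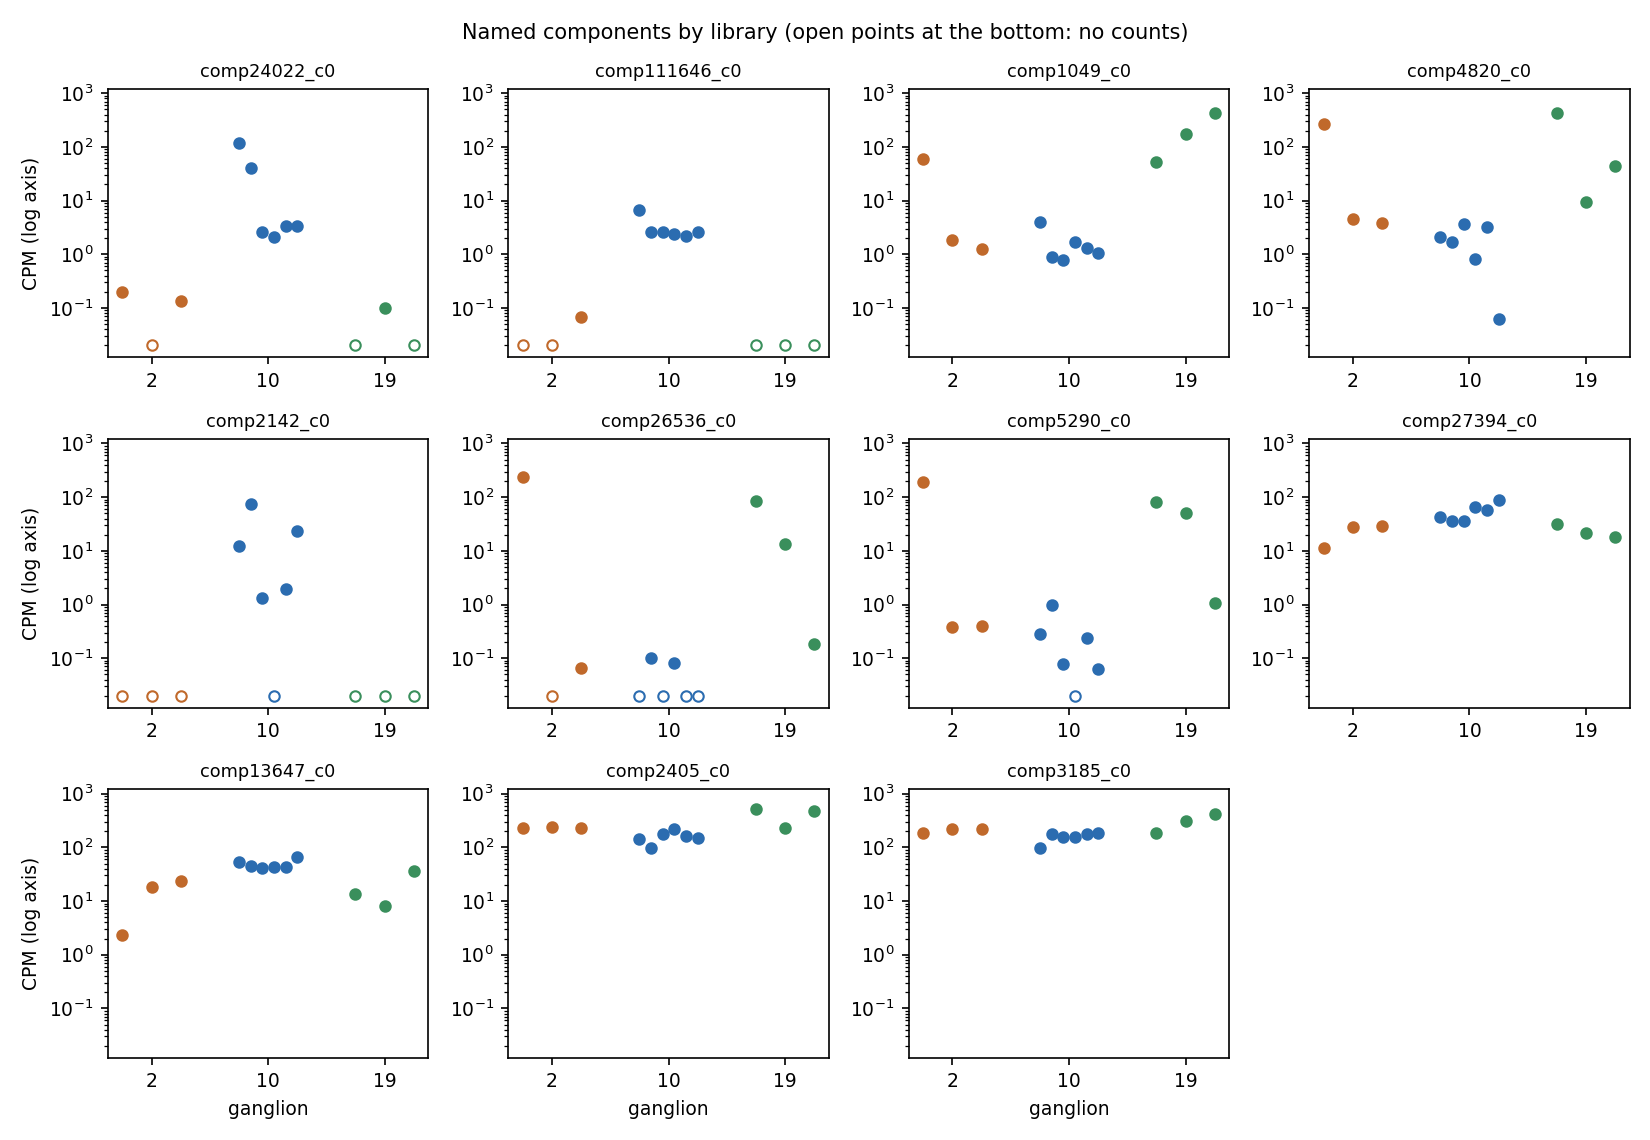
CPM (log axis) of the 11 named components in each library, by ganglion, with open points at the bottom for no counts. In comp1049_c0, comp4820_c0, comp26536_c0 and comp5290_c0, ganglion 2 library 1 lies far above libraries 4 and 7, while in the last 4 panels, the most abundant separated components, the sides lie close together.

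The most abundant separated components had smaller log2 differences than those of smallest p. The higher one, comp27394_c0 with 7 contigs, had 43.48, 36.28, 35.70, 64.81, 57.62 and 89.74 CPM in ganglion 10 libraries 2, 5, 8, 10, 11 and 12. Ganglion 2 had 11.31, 27.80 and 29.57 CPM and ganglion 19 had 32.12, 21.29 and 18.15 CPM. The sides were 54.6 ± 20.8 and 23.4 ± 7.90 CPM (SD, n = 6 each), a log2 difference of 1.22 (SE 0.53, edgeR adjusted p = 0.799). The ends were level, differing by 0.03 on the log2 scale (SE 0.81).

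Similarly, comp13647_c0 had 41.17 to 65.06 CPM in ganglion 10 with a median of 43.6. Ganglion 2 had 2.339, 18.66 and 23.16 CPM and ganglion 19 had 13.61, 8.256 and 36.18 CPM. The means were 48.2 ± 9.27 and 17.0 ± 11.9 CPM (SD, n = 6 each), a log2 difference of 1.50 (SE 0.62, edgeR adjusted p = 0.794). Its middle libraries were the more uniform side.

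On the lower side, comp2405_c0 had 97.08 to 218.2 CPM in ganglion 10 with a median of 155.8. Ganglion 2 had 229.5, 238.4 and 226.6 CPM and ganglion 19 had 518.7, 228.5 and 473.4 CPM, so the nearest libraries of the 2 sides were close. Its log2 difference was -1.02 (SE 0.44, edgeR adjusted p = 0.799). It was -0.55 (SE 0.54) from ganglion 2 and -1.33 (SE 0.53) from ganglion 19. Likewise comp3185_c0 had 95.81 to 185.1 CPM in ganglion 10, against 185.6, 221.6 and 223.6 CPM in ganglion 2 and 187.1, 305.2 and 412.5 CPM in ganglion 19. Its log2 difference was -0.71 (SE 0.43, edgeR adjusted p = 0.836), and library 12 missed the lowest end library by less than 1 CPM.

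A pair of components that share the first number of their identifier moved in opposite directions, a pair chosen after their values were seen. While comp2142_c0 was found only in ganglion 10, comp2142_c1 was among the 11 separated lower components. It had 37.61 to 134.1 CPM in ganglion 10, and 520.1, 198.3 and 157.1 CPM in ganglion 2 and 237.9, 230.2 and 169.8 CPM in ganglion 19. The sources used here do not say what the assembler meant by a shared number.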

How the data were processed

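RNA from ganglia 2, 10 and 19 was sequenced in 12 libraries, and the tools in the submitters' processing notes are TopHat, Cufflinks, RSEM and FastQC, given with no version. The deposited table gives whole-number counts per contig for libraries 1 to 9. It gives expected counts for libraries 10, 11 and 12, of which 29.1%, 25.2% and 29.2% were not whole, as deposited. Neither the assembler nor a filter is named in the sources used here.

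Counts were summed per component and then rounded. Of 58593 components, 2 had no counts. For the comparison of ganglion 10 with both ends together, filterByExpr of edgeR 4.0.16 (minimum count 10) kept 19608, and for the fit with 3 ganglia as levels 31524. The main test was edgeR's quasi-likelihood test with TMM scaling, no covariate and Benjamini-Hochberg adjustment over all components kept. For both ends separately the larger p of the 2 contrasts was used. SEs were derived from the F statistic. Detection was counted after thinning to 6436783 counts, with exact two-sided permutation tests over libraries. Pooled folds carry exact 95% binomial intervals, and bounds use 3 counts over the group, which cover counting error only.

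The scripts were tested on simulated data. Alternatives were DESeq2 1.42.0, limma 3.58.1 voom, other scalings, filters, lane as a term and leaving out libraries, and DESeq2, presence and abundance classes with libraries left out, and these classes without the filter, were added after seeing the data. In DESeq2 the replacement and the filtering of outlying counts were switched off. Named components are the 2 of smallest p in each direction for both comparisons and the 2 most abundant separated ones. The comparison, its members and its lists were chosen with earlier results of these data known. Software was Python 3.11.15 (pandas 2.3.3, numpy 2.4.6, scipy 1.17.1, matplotlib 3.10.9) and R 4.3.3.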

Additional observations from a re-analysis of the deposited data

Results flagged for a closer look

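Of 19 sets of ganglion 10 values checked, 6 held a library far from the other 5. Chance gives such a gap in about 1 in 20 groups of normally distributed values. Component levels were checked as CPM without logs, so that rate may not hold for them. Library 2 was the highest for comp24022_c0 at 120.8 CPM, for comp111646_c0 at 6.558 CPM and for comp1049_c0 at 3.992 CPM, and the lowest for comp3185_c0 at 95.81 CPM. Library 5 was the highest for comp2142_c0 at 76.15 CPM and for comp5290_c0 at 0.9967 CPM. All 6 components were chosen for their small p or their separation.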

How the results depend on the processing

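The number of components called by edgeR in middle against ends was 0, against 218 with DESeq2, 367 with DESeq2 without libraries 1 and 3, 168 with that on the same components, 3 without libraries 2, 5 and 8, and 0 to 2 with each library left out in turn. The 2 appeared without library 7: comp1049_c0 (log2 difference -6.46, edgeR adjusted p = 0.0491) and comp7181_c0 (7.01, edgeR adjusted p = 0.0073), which had 344.3 CPM in library 7 and at most 2.92 CPM in the other end libraries. The 3, comp19307_c1, comp28953_c0 and comp30936_c0, were present at 24.4 to 82.9 CPM in libraries 10, 11 and 12, at no more than 0.498 CPM in libraries 2, 5 and 8, and at no more than 0.195 CPM in every end library. These 4 beside comp1049_c0 were chosen after their values were seen, and libraries 10 to 12 are also those whose deposited values are estimated counts. For both ends separately edgeR called 0, DESeq2 23, and DESeq2 without libraries 1 and 3 386, or 85 on the same components. Over all components tested in middle against ends, the median log2 difference ran from -0.12 with DESeq2's size factors in edgeR, through 0.05 with upper quartile scaling, to 0.40 with voom, and reported differences are not corrected for it.

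Separated components numbered 122 higher and 11 lower. They were 185 and 1 with raw totals, 148 and 7 with upper quartile scaling, 449 and 14 over all components, 261 and 93 without libraries 1 and 3, 387 and 53 without libraries 2 and 5, and 398 and 86 in libraries 1 to 9. With each library left out in turn they ran from 147 to 427 and from 16 to 51, with the highest numbers without library 7. Fewer libraries make separation easier by construction. The gain in detected components was 11747, with 3566 within lane 2, 19139 within lane 4 and 10063 to 13257 with each library left out in turn. The sign of every named component's log2 difference was the same in all 318 component and setting pairs computed, and none reversed. These components were chosen from the same libraries for small p or separation, so a reversal was unlikely from the start. The unchanged sign is no independent support for them. No paired analysis was possible because the labels number the libraries 1 to 12 and no number recurs between ganglia.

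The 3 leeches cannot be assigned to libraries, identifiers carry no gene names, and scarce components are limited by depth, since a count of 0 in a library allows up to 3 counts.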
